A study of Rattus norvegicus with 8 samples.

Results

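RNAseq of whole hippocampi was used to compare adrenalectomized (ADX) rats infused with corticosterone or with vehicle, and 10 genes of the pyruvate dehydrogenase (PDH) switch and of fatty acid fuel use were examined in that comparison. The genes were taken by symbol: the PDH kinases Pdk1, Pdk2, Pdk3 and Pdk4, the phosphatase Pdp1, the enzyme subunit Pdha1, and the fuel genes Cpt1a, Angptl4, Ucp2 and Ppargc1a. Of these 10 genes, 9 had at least 1 row in the authors' transcript table, with 12 transcript rows among its 16266 rows and 13272 gene symbols, and no row was found for Pdha1. They were chosen by name with their FPKM ratios of CORT over Vehicle already known, so these values are given as a description and nothing is tested with them.

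The 8 rats were adult, 3 to 4 months old per the labels, and all had lost both adrenal glands and carried a jugular cannula. The 4 Vehicle rats received 0.45% saline for 30 min at ZT 2 (zeitgeber time, hours after lights on). The 4 CORT rats received corticosterone-2-hydroxypropyl-β-cyclodextrin at 0.75 mg/mL in 0.45% saline for the same time, and tissue was collected 2 h after the infusion began. No cyclodextrin is named for the Vehicle saline, so the hormone and the cyclodextrin given with it cannot be told apart. After surgery both groups had corticosterone in their drinking saline, replaced by plain saline before the infusion, so the Vehicle group models a short absence of the hormone and not an intact animal. The labels name Sprague-Dawley rats and call the Vehicle libraries untreated, whereas the study's methods name male Lister hooded rats and give a younger age. Each group is represented by 1 deposited FPKM value per transcript (fragments scaled for transcript length and for the reads mapped, a level that can be compared between genes). Values of single rats, and the number of reads behind a value, were not used here, so no spread between rats, interval or test stands beside any number. A ratio means the CORT over the Vehicle value on the log2 scale, without a pseudocount, and a row was counted as higher or lower when it was at least 2-fold apart and reached 1 FPKM in one group or both.

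The PDH complex turns pyruvate into acetyl-CoA inside the mitochondrion and so commits glucose carbon to oxidation. Its E1 alpha subunit, the product of Pdha1, is switched off when a PDH kinase phosphorylates it and on again when a PDH phosphatase such as that of Pdp1 removes the phosphate. Mammals have a set of paralogous kinases with different tissue distributions, and Pdk4 is known as the one that follows fasting, fatty acids and glucocorticoids in muscle, heart and liver. Cells that hold PDH in check burn more fatty acid, and Cpt1a acts in the entry of the acyl chain into the mitochondrion. Angptl4 is a secreted inhibitor of lipoprotein lipase, Ucp2 an inner-membrane carrier of the mitochondrion, and Ppargc1a a coactivator of genes of mitochondrial and oxidative metabolism.

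Pdk4 stood apart from its paralogues. Its one transcript row, ENSRNOT00000012760.4 on chromosome 4 of rn6 between 30546663 and 30556814, had an authors' value of 1.39 FPKM in Vehicle rats and 8.11 FPKM in CORT rats, a ratio of 2.54 or 5.84-fold. Pdk2, the most abundant of the kinases, was at 60.1 FPKM (Vehicle) and 67.8 FPKM (CORT), a ratio of 0.17. Pdk1 was at 17.0 and 15.9 FPKM, a ratio of -0.10. Pdk3 has a pair of transcript rows, and its summed level was 17.6 FPKM (Vehicle) and 17.1 FPKM (CORT), a ratio of -0.04. In log2 units, the ratio of Pdk4 exceeded that of Pdk1 by 2.64 and that of Pdk2 by 2.37. It exceeded that of Pdk3 by 2.58 with the rows summed and that of the main Pdk3 transcript by 2.84. The second Pdk3 row, described below, had a ratio of 1.28. In bulk tissue a higher level can come from more RNA per cell or from more cells of the kind that makes it, and these cannot be told apart for any value given here.

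**Figure D1:**
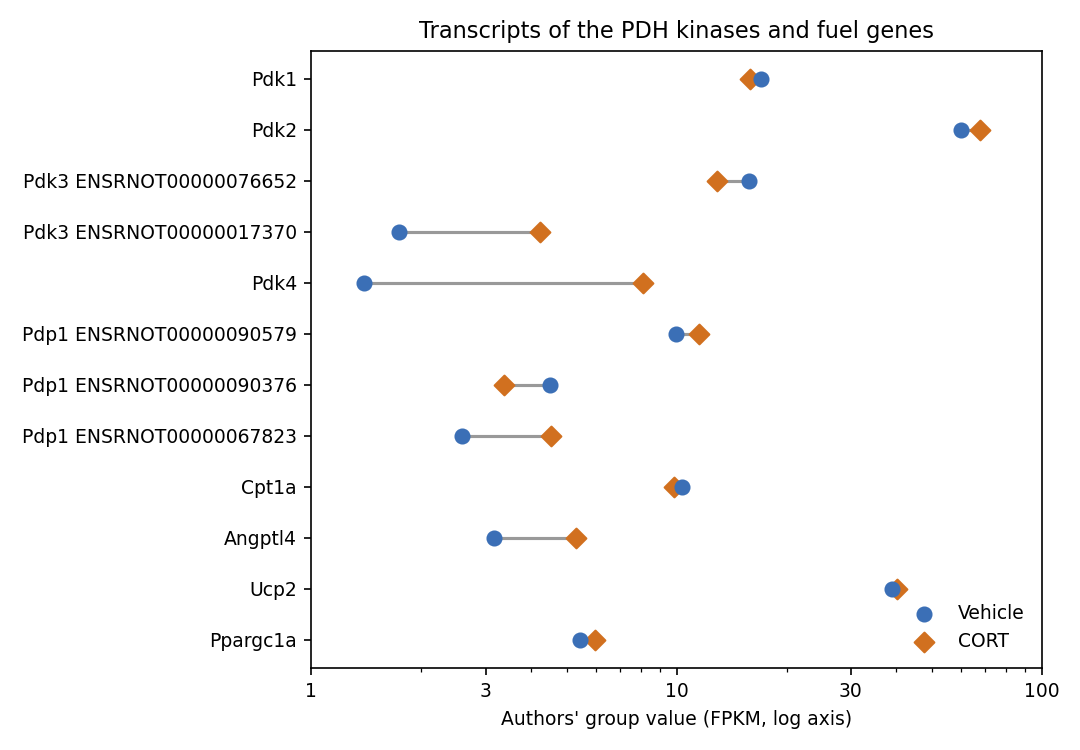
Authors' group value in FPKM on a log axis for each of the 12 transcript rows, with a circle for Vehicle, a diamond for CORT and a line joining them. Pdk4 has the longest line, from 1.39 to 8.11 FPKM, the second Pdk3 row, the third Pdp1 row and Angptl4 have shorter ones, and the circles and diamonds of Pdk1, Cpt1a, Ucp2 and Ppargc1a lie close together.

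Pdk4 nevertheless remained the least abundant of the kinases in both groups. With vehicle, the Pdk2 level was 43.2 times that of Pdk4, the Pdk3 level 12.6 times and the Pdk1 level 12.3 times. With CORT these multiples were 8.36, 2.11 and 1.96. Pdk4 made up 1.45% of the summed FPKM of the 4 kinases with vehicle and 7.45% with CORT, while Pdk2 made up 62.5% and 62.2%. The share of Pdk1 went from 17.7% to 14.6% and that of Pdk3 from 18.3% to 15.7%. The summed kinase level was 96.0 FPKM (Vehicle) and 109 FPKM (CORT). Of this difference of 12.9 FPKM, 7.71 FPKM was that of Pdk2 and 6.72 FPKM that of Pdk4, with small differences of opposite sign in Pdk1 and Pdk3. These amounts depended on the scale of the groups. With CORT values scaled to the same total FPKM as Vehicle, the summed kinase level differed by 6.27 FPKM, Pdk2 by 3.61 FPKM and Pdk4 by 6.23 FPKM.

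**Figure D2:**
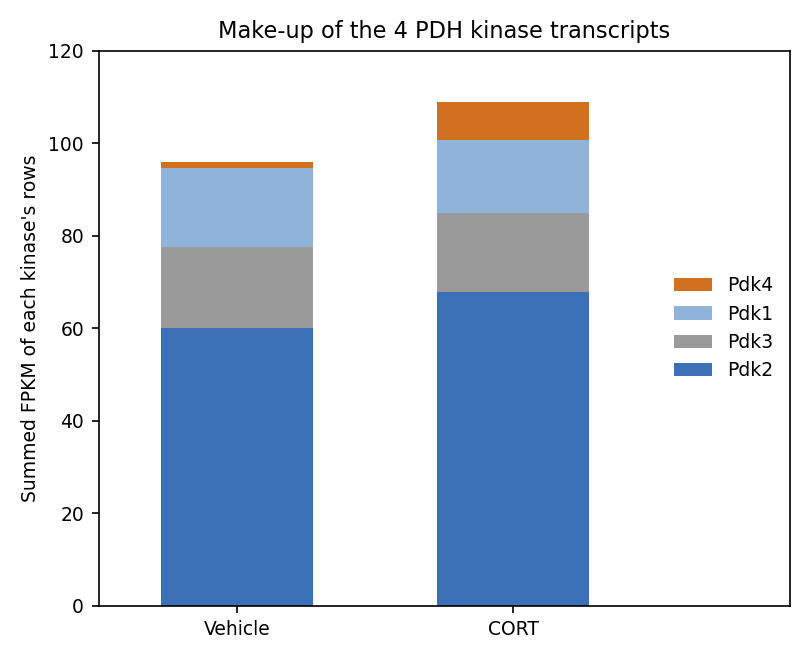
Stacked bars of the summed FPKM of the transcript rows of each PDH kinase in the Vehicle and the CORT group. Pdk2 fills the lower part of both bars at 62.5% and 62.2%, and the Pdk4 segment at the top goes from 1.45% to 7.45%.

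The stretch of DNA before the start of Pdk4 is shown together with those of Pdk2, the abundant kinase with a ratio near 0, and Angptl4, the other gene whose level was more than 1.5-fold higher, so that the regions of genes with different ratios can be read side by side. The sequences are from RefSeq on the GRCr8 build, 250 bases up to the annotated gene start, 5′ to 3′ on the strand of the gene, and no coordinate was carried over from rn6. Pdk4 lies on the minus strand at chr4:34568330-34568579, Pdk2 on the minus strand at chr10:80483913-80484162, and Angptl4 on the minus strand at chr7:15258682-15258931. Capitals mark matches on either strand to the CCAAT box (CCAAT), the GC box (GGGCGG), the TATA box (TATAAA) and the E-box (CACGTG).
Pdk4: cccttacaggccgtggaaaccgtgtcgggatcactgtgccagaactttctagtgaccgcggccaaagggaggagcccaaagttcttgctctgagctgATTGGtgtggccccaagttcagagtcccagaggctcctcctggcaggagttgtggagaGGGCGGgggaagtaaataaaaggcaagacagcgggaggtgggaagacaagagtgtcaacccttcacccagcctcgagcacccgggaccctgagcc
Pdk2: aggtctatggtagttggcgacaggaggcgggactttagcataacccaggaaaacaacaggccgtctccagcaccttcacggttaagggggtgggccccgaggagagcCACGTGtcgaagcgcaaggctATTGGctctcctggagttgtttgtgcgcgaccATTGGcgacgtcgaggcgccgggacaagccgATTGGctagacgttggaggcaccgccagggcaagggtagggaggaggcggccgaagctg
Angptl4: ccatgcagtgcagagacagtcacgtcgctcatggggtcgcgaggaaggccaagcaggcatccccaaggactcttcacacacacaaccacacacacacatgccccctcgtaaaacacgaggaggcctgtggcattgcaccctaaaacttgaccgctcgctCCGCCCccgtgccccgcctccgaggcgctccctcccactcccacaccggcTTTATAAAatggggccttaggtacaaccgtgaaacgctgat

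In these windows Pdk4 had 1 CCAAT box, on the opposite strand, and 1 GC box. Pdk2 had 3 CCAAT boxes, all on the opposite strand, and 1 E-box. Angptl4 had 1 GC box on the opposite strand and a pair of overlapping TATA boxes, 1 on each strand. Among all 33469 promoters of the same length in the RefSeq table, 34% held a CCAAT box, 30.5% a GC box, 12.9% a TATA box and 5.59% an E-box. The half-site of the glucocorticoid receptor (AGAACA, in 17.5% of all promoters), its palindrome (AGAACA and TGTTCT with 3 bases between them, in 0.012%) and the FOXO core (GTAAACA, in 3.21%) were not among the letters of any of the 9 windows with a sequence, those of Pdk1, Pdk2, Pdk3, Pdk4, Pdha1, Cpt1a, Angptl4, Ucp2 and Ppargc1a. The GC content was 59.2% for Pdk4, 62% for Pdk2 and 60% for Angptl4, against a median of 51.2% over all promoters. Sites outside the window were not searched, and a match is a run of letters and not a bound site.

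Pdk3 and Pdp1 have several transcript rows each, and within both genes the rows had ratios of opposite sign. The main Pdk3 transcript, ENSRNOT00000076652.1, was at 15.8 FPKM (Vehicle) and 12.9 FPKM (CORT), a ratio of -0.29. The other, ENSRNOT00000017370.7, was at 1.74 and 4.22 FPKM, a ratio of 1.28, which passed the 2-fold limit. This row took 9.90% of the Pdk3 FPKM with vehicle and 24.6% with CORT, while the level of the gene as a whole differed by a ratio of -0.04. Both rows carry the same locus, chromosome X between 62836130 and 62903554 in rn6, so the reads they share had to be divided between them by the authors' Cufflinks estimate.

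Pdp1, the phosphatase that opposes the kinases, showed the same kind of split over 3 rows on chromosome 5 between 25577450 and 25584288. Its main transcript, ENSRNOT00000090579.1, was at 9.98 FPKM (Vehicle) and 11.5 FPKM (CORT), a ratio of 0.21. ENSRNOT00000090376.1 was at 4.49 and 3.36 FPKM, a ratio of -0.42, and ENSRNOT00000067823.3 at 2.59 and 4.54 FPKM, a ratio of 0.81. The share of the last in the Pdp1 FPKM was 15.2% with vehicle and 23.4% with CORT. The sum over the 3 rows was 17.1 FPKM (Vehicle) and 19.4 FPKM (CORT), a ratio of 0.19, so none of the Pdp1 values reached 2-fold.

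Pdk4 has a single row, so its value does not depend on such a division between listed rows. Whether a Pdk4 transcript without a row took part of its reads cannot be seen from these values. Among rows below the top row of their gene, 7.13% were at least 2-fold higher and 3.9% at least 2-fold lower with CORT. Among the rows of genes with 1 row, 0.566% were at least 2-fold higher and 1.4% at least 2-fold lower. At 1.5-fold the shares that were higher came to 13.9% and 1.79%, and those that were lower to 8.09% and 3.91%. The second Pdk3 row and the third Pdp1 row belong to the former kind and Pdk4 to the latter.

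The fatty acid fuel genes had smaller ratios than Pdk4. Angptl4 (ENSRNOT00000010031.6), on chromosome 7 between 18627807 and 18634079, was at 3.16 FPKM (Vehicle) and 5.29 FPKM (CORT), a ratio of 0.74 or 1.67-fold. Ppargc1a (ENSRNOT00000006071.5), on chromosome 14 between 63095719 and 63187009, was at 5.43 and 5.97 FPKM, a ratio of 0.14. Cpt1a (ENSRNOT00000019652.3), on chromosome 1 between 218569509 and 218629678, was at 10.3 and 9.86 FPKM, a ratio of -0.07. Ucp2 (ENSRNOT00000024156.5), on the same chromosome between 165506360 and 165512744, was at 39.0 and 40.0 FPKM, a ratio of 0.04 that became -0.05 when both groups were scaled to the same total FPKM. In rn6 Pdk1 (ENSRNOT00000002072.6) lies on chromosome 3 between 58530869 and 58558027 and Pdk2 (ENSRNOT00000005641.6) on chromosome 10 between 82839152 and 82852660.

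Counted by row, 2 of the 12 rows, those of Pdk4 and the second Pdk3 transcript, were at least 2-fold higher with CORT and 0 were at least 2-fold lower. Over all 15808 rows with at least 1 FPKM in a group, 1.78% were at least 2-fold higher and 1.77% at least 2-fold lower. At 1.5-fold, 4 of the 12 rows were higher, with the third Pdp1 row and Angptl4 added, and 0 were lower, where 4% of all rows were higher and 4.45% lower. With each gene represented by its top row, 1 of 9 genes, Pdk4, was at least 2-fold higher, against 0.624% of 12988 genes. The median ratio of the 9 genes was 0.14, beside 0.02 for all genes. Because the genes were picked with this contrast known, these counts say nothing about the genes as a group.

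The place of Pdk4 in the table depended on which rows it was ranked with. Among all 15808 rows it was number 63 from the highest ratio. Its neighbours there were SNORA33 at 2.67, Clip1 at 2.61 and Crtac1 at 2.59 above it, and ACA64 at 2.54, SNORA55 at 2.54 and Smad2 at 2.53 below it. Of these, SNORA33, ACA64 and SNORA55 are small structural RNAs, and the rows of Clip1, Crtac1 and Smad2 are each 1 of 3 for their gene. With the rows of each symbol summed, Pdk4 was number 19 of 12992 genes. Among 10609 genes with 1 row it was number 11, and of the 10 rows above it 7 were structural RNAs, while the other 3, Fmo2, Pate2 and AC119007.1, singled out after their values were seen, had at most 0.253 FPKM with vehicle. Among 3751 such genes with a mean between 2 and 10 FPKM, a range also chosen after the values were seen, 0.373% were at least 2-fold higher and 1.33% at least 2-fold lower. Pdk4 was second there, after the small structural RNA snoU85 with a ratio of 3.63.

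**Figure D3:**
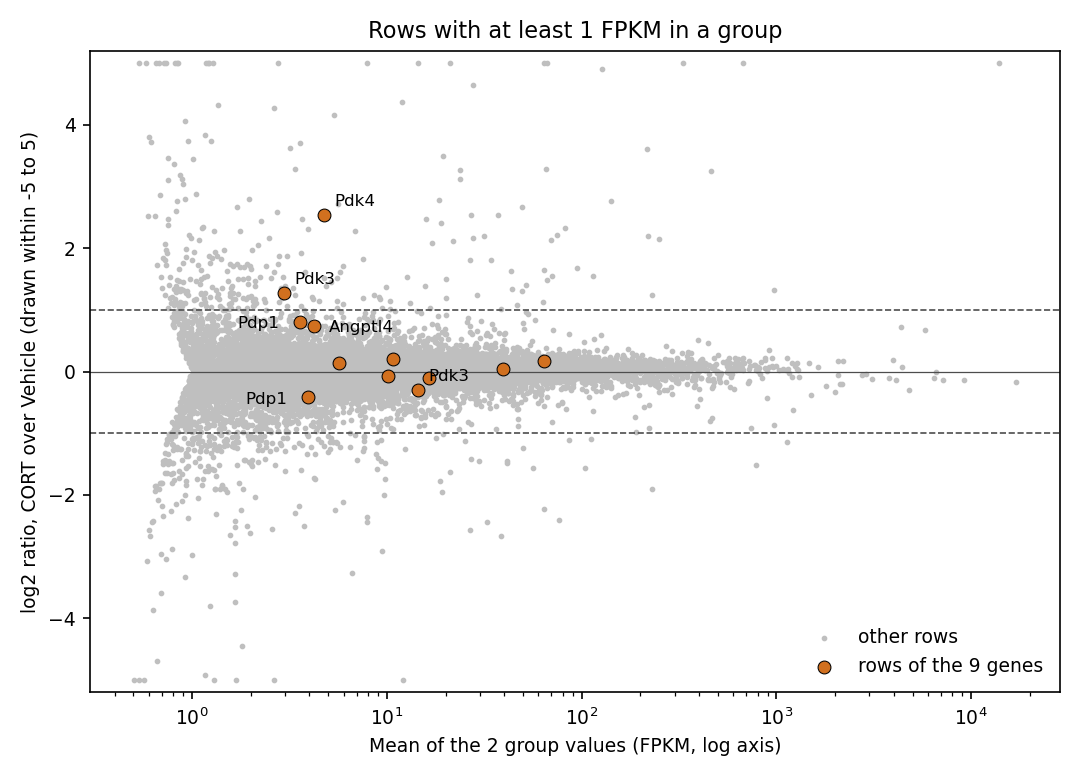
Ratio of CORT over Vehicle on the log2 scale against the mean of the group values in FPKM on a log axis, for rows with at least 1 FPKM in a group, with the 12 rows of the 9 genes in orange and dashed lines at 2-fold. Pdk4 at 2.54 and the second Pdk3 row at 1.28 lie above the upper line, and the other 10 orange rows lie between the lines.

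The rest of the PDH machinery differed little. Dld, the E3 subunit and the most abundant gene of this list, was at 61.3 FPKM (Vehicle) and 60.6 FPKM (CORT), a ratio of -0.02. Pdhb, the E1 beta subunit, was at 56.2 and 58.2 FPKM, Dlat, the E2 subunit, had a ratio of 0.10, and Pdhx, the E3-binding protein, was at 24.2 and 23.6 FPKM. The second phosphatase Pdp2 was at 3.17 and 3.27 FPKM, and Pdpr, a regulatory subunit of the phosphatase, at 4.80 and 5.59 FPKM. Over the 7 of 8 genes of the complex and its phosphatases with a row, ratios of the top rows ran from -0.04 to 0.22 and none of these reached 1.5-fold. Among these 7 genes and the 4 kinases, Pdk4 was the one gene whose top row differed by 1.5-fold or more.

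The surrounding fuel pathways were described with lists of 120 genes, written with earlier results of these data known. Each gene was read from its top row, the transcript of highest mean level, and 103 genes had such a row with at least 1 FPKM in a group. Of these 103 genes, 3 were at least 2-fold higher, Pdk4, Gpd1 and Plin4, and 0 were at least 2-fold lower, where 0.624% and 1.31% of all 12988 genes were. Plin4 reached 1 FPKM in the CORT group alone and so could be counted as higher but not as lower, and with a pseudocount of 1 FPKM the count was 2. At 1.5-fold, 5 were higher, with Klf15 and Angptl4 added, and 2 were lower, Hk2 and Ppara, where 1.86% and 3.66% of all genes were. The median ratio over the 103 genes was 0.04, and 84 (81.6%) had a ratio within 0.25 of 0, close to the 79.0% of all 12988 genes. Without the 10 genes chosen by name, 94 of the 103 genes remained, of which 2 were at least 2-fold higher and 0 at least 2-fold lower. The lists, like the 10 genes, were chosen with earlier results known, so these counts say nothing about fuel genes as a group. Scaling both groups to the same total FPKM takes 0.09 from every ratio. Medians of the lists between 0 and that size are therefore below 0 on that scale.

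Gpd1, the cytosolic glycerol-3-phosphate dehydrogenase that links glycolysis to lipid synthesis and the transfer of reducing equivalents, was at 36.1 FPKM (Vehicle) and 105 FPKM (CORT), a ratio of 1.54 or 2.91-fold. It was the only gene past 2-fold by its top row among 14 genes of pyruvate and lactate handling, whose median ratio was 0.05. The most abundant of that list, Ldhb, the lactate dehydrogenase subunit that favours lactate use, was at 393 and 414 FPKM. The subunits of the mitochondrial pyruvate carrier, Mpc1 and Mpc2, had ratios of 0.02 and -0.11.

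Of 21 listed genes of glucose uptake and glycolysis, 5 had no row and 15 had a top row that reached 1 FPKM. These glycolytic genes had mostly small positive ratios, 14 of 15 above 0 with a median of 0.12, where 54.6% of all genes were above 0. Aldoa, the aldolase with the highest level, was at 625 FPKM (Vehicle) and 727 FPKM (CORT), a ratio of 0.22. The glucose transporter Slc2a1 was at 46.1 and 62.5 FPKM, a ratio of 0.44. Hk2, the insulin-responsive hexokinase, went the other way, at 3.14 and 1.78 FPKM, a ratio of -0.82.

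By their top rows, genes of mitochondrial fatty acid oxidation gave no value past 1.5-fold in either direction. A minor row of Acaa2 did, at 2.50 FPKM (Vehicle) and 5.78 FPKM (CORT), a ratio of 1.21. Over the top rows of 20 of 21 listed genes the ratios ran from -0.24 to 0.23 with a median of -0.08. Of the 20, 13 were below 0, where 45.4% of all genes were at or below 0. Etfb, a subunit of the electron transfer flavoprotein and the most abundant of the list, was at 75.5 FPKM (Vehicle) and 83.2 FPKM (CORT). The Cpt1a paralogues Cpt1b and Cpt1c had ratios of 0.23 and 0.10. The tricarboxylic acid cycle was as flat, with ratios from -0.03 to 0.21 over 14 of 15 listed genes and a median of 0.05. Mdh2, its most abundant gene, was at 217 and 228 FPKM.

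Of 17 listed targets of the PPAR nuclear receptors and other lipid genes, 11 had a row. Among these, Plin4, a protein of the lipid droplet surface, was at 0.645 FPKM (Vehicle) and 1.57 FPKM (CORT), a ratio of 1.28 from low values. Together with Angptl4 it was one of 2 genes of the list past 1.5-fold, and Ucp2 was the most abundant. Txnip, an arrestin-like protein that restrains glucose uptake, was at 36.6 and 26.7 FPKM, a ratio of -0.46. The median of the list was -0.02.

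Of 20 listed regulators of fuel genes, 18 had a top row that reached 1 FPKM. Among these, Klf15, a glucocorticoid-responsive transcription factor of amino acid and lipid metabolism, was at 7.35 FPKM (Vehicle) and 14.6 FPKM (CORT), a ratio of 0.99 just under 2-fold. The main row of Ppara, the receptor that drives Pdk4 and fatty acid genes in liver, was at 1.13 and 0.658 FPKM, a ratio of -0.77, but the sum of its rows had a ratio of 0.56. The mineralocorticoid receptor gene Nr3c2 had the top row of highest mean level in the list, though not the highest in Vehicle. It was at 24.1 and 30.2 FPKM, a ratio of 0.32. The glucocorticoid receptor gene Nr3c1 had a ratio of -0.34. Foxo3 had a ratio of 0.50.

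**Figure D4:**
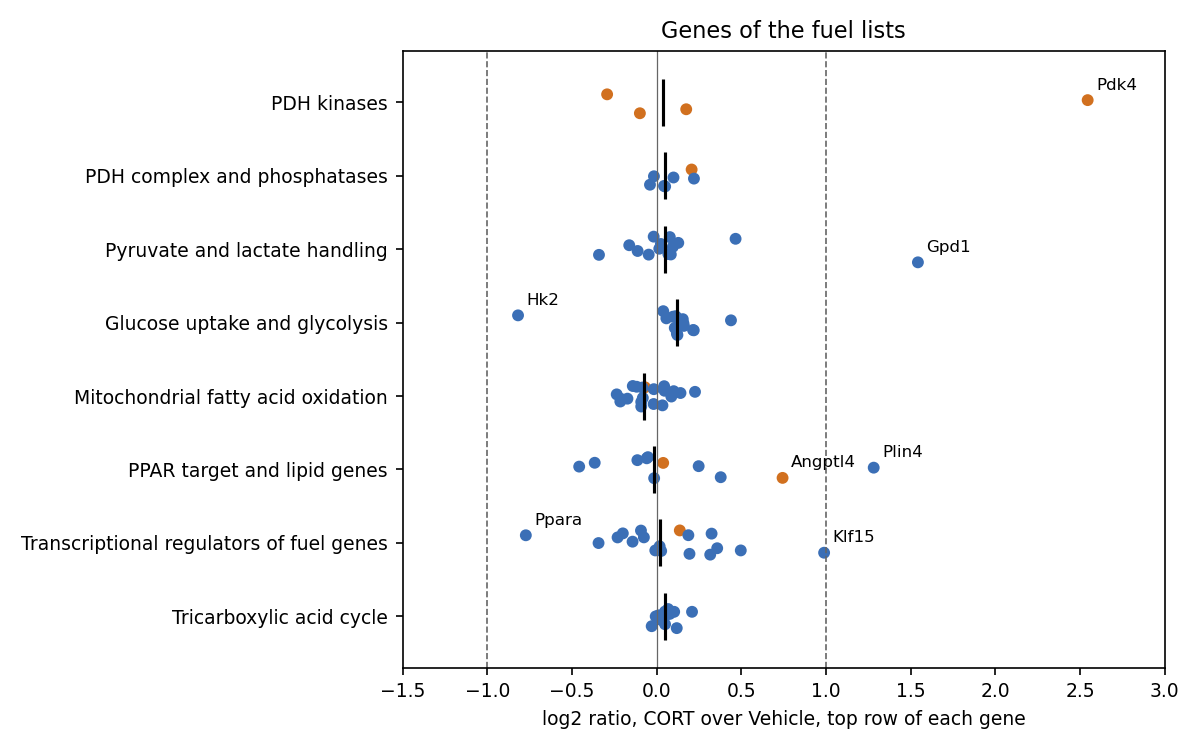
Ratio of CORT over Vehicle on the log2 scale for the top row of each gene in 8 lists, with members of the 10 genes in orange, the list median as a black bar, dashed lines at 2-fold and names for genes past 1.5-fold. Pdk4 at 2.54 lies farthest out, followed by Gpd1 at 1.54 and Plin4 at 1.28, and each list median lies within 0.12 of 0.

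Markers of the cell types in the tissue were read beside these values. Slc17a7, a vesicular glutamate transporter of excitatory neurons, was at 736 FPKM (Vehicle) and 794 FPKM (CORT), and Prox1, a marker of dentate granule cells, was at 10.9 and 8.96 FPKM, so markers of hippocampal neurons were present in both groups. Ttr, the main product of choroid plexus, was at 6605 and 6598 FPKM, so choroid plexus RNA was in the libraries of both groups, and 7 of 8 choroid plexus markers with a row had a median ratio of -0.02. The summed level of 7 neuronal markers was 2852 FPKM (Vehicle) and 2983 FPKM (CORT), and Snap25, the highest, was at 1178 and 1155 FPKM.

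The 6 other lists had lower sums with CORT. For 8 astrocyte markers the summed level was 2586 FPKM (Vehicle) and 2132 FPKM (CORT), with Gfap at 970 and 517 FPKM. The other 7 markers summed to 1616 and 1615 FPKM, with shifts in both directions. Aqp4 was at 93.6 and 65.5 FPKM, a ratio of -0.51 (-0.38 with its rows summed). Aldh1l1 was at 6.39 and 4.02 FPKM (a ratio of -0.05 with its rows summed), Gja1 had a ratio of -0.10 and Slc1a3 one of -0.09. Slc1a2 had a ratio of 0.14, Gjb6 one of 0.18 and S100b, at 1066 and 1095 FPKM, one of 0.04. The sum was 82.2 and 72.3 FPKM for 7 of 8 endothelial markers, with Cldn5 at 50.8 and 45.6 FPKM and Kdr at 2.60 and 1.29 FPKM. For 8 microglial markers it was 252 and 217 FPKM, with C1qa at 71.8 and 67.4 FPKM and Tmem119, the exception, at 5.72 and 11.2 FPKM. For 8 oligodendrocyte markers it was 5467 and 4526 FPKM, with Mbp at 2226 and 1772 FPKM and Opalin at 101 and 65.8 FPKM.

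The meningeal and mural list summed to 70.6 FPKM (Vehicle) and 47.8 FPKM (CORT) over 7 of 8 markers. Col1a1 had a ratio of -1.15 and Col3a1 one of -1.29, while Islr was at -0.89, Pdgfrb at -0.82, Acta2 at -0.76 and Dcn, the most abundant, at 0.09. Over 4 of 5 blood markers the sum was 1419 and 812 FPKM, with ratios of -0.75 for Hba1, -0.97 for Hba2, -0.80 for Hbb and -0.82 for Alas2. No marker was listed at 0. The part of these shifts in the values of the fuel genes was not tested.

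**Figure D5:**
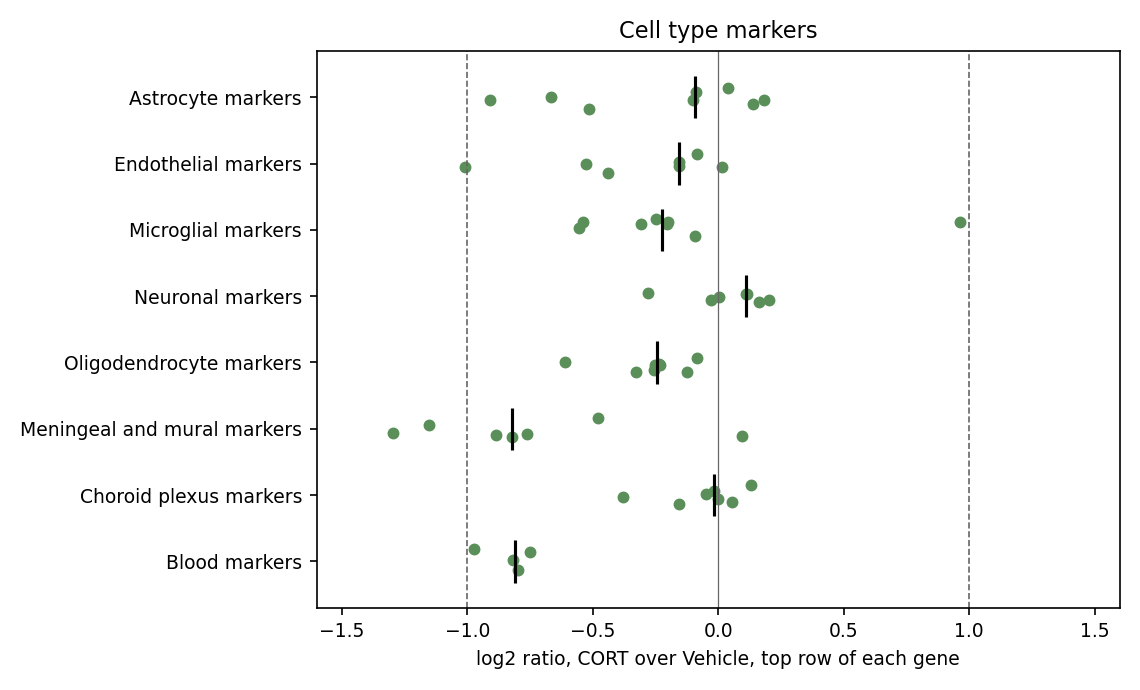
Ratio of CORT over Vehicle on the log2 scale for the top row of each marker in 8 cell type lists, with the list median as a black bar and dashed lines at 2-fold. The medians of the meningeal and mural list at -0.82 and the blood list at -0.81 lie farthest to the left, and that of the neuronal list at 0.11 lies to the right of 0.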

How the data were processed

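RNAseq of hippocampi from 8 rats was compared between 4 Vehicle and 4 CORT animals, grouped by the treatment in the labels. Per the submitters' processing notes and the study's methods, the authors used CASAVA 1.8.2, aligned reads to rn6 with TopHat2 2.0.10 and estimated transcript FPKM with Cufflinks. Cuffdiff 2.2.0 then compared the groups, with a geometric library setting, a pooled estimate of dispersion, a minimum alignment count and multi-read, bias and effective length corrections. The deposited table holds 1 FPKM value per group and transcript, and the authors' own fold change, test statistic, p-value, q-value and call, which were not used. Depth per library was not given in the table.

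Log2 ratios, sums over the rows of a symbol and counts past a fold were computed with Python 3.11.15, numpy 2.4.6 and pandas 2.3.3, and figures with matplotlib 3.10.9, after the code was tested on simulated data. Because 1 value per group was used, no test was run. Genes were named by a rule: the 10 genes, list genes past 1.5-fold, the most abundant gene of each list, and 3 neighbours of Pdk4 on each side. The other genes of the PDH list and Mpc1, Mpc2, Slc2a1, Cpt1b, Cpt1c, Txnip, Nr3c1, Foxo3, Slc17a7, Slc1a2, Slc1a3, Gja1, Gjb6, Aqp4, Prox1 and Gapdh were named after their values were seen. The genes and lists were chosen with earlier results of these data known. Symbols were matched exactly, and no gene without a row was found under a synonym of the RefSeq GRCr8 table. Alternatives were pseudocounts, filters, a 1.5-fold limit, 3 scalings and summed rows. Promoters came from RefSeq on GRCr8 for 9 of the 10 genes.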

Additional observations from a re-analysis of the deposited data

How the results depend on the processing

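Among the alternatives run, a pseudocount of 1 FPKM and the summing of the rows of a gene moved the 12 ratios most. Variation between rats could not be weighed against these, because 1 value per group was used. Depth could not be read from the group values. A value without replicates was taken as moved when it shifted by 0.1 or more on the log2 scale. With a pseudocount of 1 FPKM the ratio was 1.93 for Pdk4, 0.93 for the second Pdk3 row, 0.63 for the third Pdp1 row (ENSRNOT00000067823.3) and 0.60 for Angptl4, and Pdk4 exceeded Pdk1 by 2.02, Pdk2 by 1.76 and Pdk3 by 2.204. With the rows of a symbol summed, both Pdk3 rows became -0.036, which reversed the second row, the lower and the third Pdp1 row became 0.19, and Pdk4 exceeded Pdk3 by 2.58. The cause in these cases is the construction of the alternative. The number of rows at least 2-fold higher, 282, and lower, 280, became 124 and 117 with at least 1 FPKM in both groups, 136 and 87 with a pseudocount of 1 FPKM, 77 and 158 genes with summed rows, and 632 and 703 at 1.5-fold. In the fuel lists 5 genes were higher and 2 lower at 1.5-fold, and 2 were at least 2-fold higher with a pseudocount of 1 FPKM. The meningeal and mural median became -0.68 with a pseudocount of 1 FPKM. A pseudocount of 0.1 FPKM moved none of the 12 ratios by 0.1 or more. The 3 scalings take a constant of 0.02, 0.04 or 0.09 from every ratio, less than that size by construction, and the ratio of Ucp2 changed sign with equal totals (-0.05) and with equal upper quartiles (-0.0014). Leaving out each rat in turn was not run because 1 value per group was used. No paired analysis was possible because each group has a single value without rat numbers.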

Other observations

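Some minor transcripts of other fuel genes also passed 2-fold, as the second Pdk3 row did. In the fuel lists, 27 rows with at least 1 FPKM in a group, from 22 genes, were not the top row of their gene, and 6 of them were at least 2-fold higher with CORT and 0 at least 2-fold lower. Over all such rows, 7.13% were higher and 3.9% lower. Besides Pdk3 the rows were those of Me1, malic enzyme, at 2.76 and 7.56 FPKM, Acaa2, the last enzyme of mitochondrial fatty acid oxidation, at 2.50 and 5.78 FPKM, Hif1a, an oxygen-sensitive transcription factor, at 1.17 and 2.69 FPKM, Aldoc, an aldolase of brain, at 0.876 and 2.94 FPKM, and Ppara at 0.0801 and 1.12 FPKM, in each case with the Vehicle value first. The Aldoc and Ppara rows were below 1 FPKM with vehicle and entered the count through the CORT value alone, which leaves 4 rows with at least 1 FPKM in both groups. The shares of 7.13% and 3.9% were not recounted with that limit. Over all rows it took the number at least 2-fold higher from 282 to 124. These genes were singled out after their values were seen.

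Although Pdha1 has no row, the table has one for Pdha1l1, a gene with a similar name on chromosome 16 of rn6 between 88345246 and 88347369, at 37.9 FPKM (Vehicle) and 40.3 FPKM (CORT), a ratio of 0.09. The authors' counting corrected for reads that map to several loci, so the value of a gene with near-identical copies is uncertain. The one row for Gapdh, an abundant glycolytic enzyme gene with many processed copies, was at 0.852 and 0.574 FPKM. These were the lowest values among the 16 genes of the glycolytic list with a row, and Gapdh was left out of the counts by the limit of 1 FPKM.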
